A study of Mus musculus with 24 samples.

Results

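Glutathione transferases are enzymes that join the thiol of glutathione to electrophilic, that is electron-poor and thiol-reactive, molecules. They were followed here in cultured mouse embryos exposed for 1 h to a pre-activated analogue of cyclophosphamide. The members were 9 genes: Gstp1 of the pi class, Gsta4 of the alpha class, Gstm1, Gstm2, Gstm4 and Gstm5 of the mu class, Gsto1 of the omega class, and the membrane-bound Mgst1 and Mgst3. Every probe whose annotation gave exactly 1 gene symbol from this list was taken, which gave 12 of 15360 probes. All 9 genes had a probe, out of 6970 genes named on the arrays. Gstp1 was read by 1 probe of the first of 2 probe tables, and the other 8 genes by 11 probes of the second.

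Both groups were kept at 37 °C. The control embryos were left untreated, and the treated embryos spent 1 h with 40 µM 4-hydroperoxycyclophosphamide (4CP) in the medium until the end. The labels also speak of heat-shocked embryos and of a longer exposure, which are not analysed here. The sources used here do not give the mouse strain, the embryonic stage, the dyes or how many embryos made up an RNA extract, and they name no genetic change. Total RNA of whole embryos averages all their cell types, so a change in a few cells and a smaller change in many cells cannot be told apart. Each of 24 two-channel arrays carried both RNAs, with the channels exchanged between the slides of a pair. Each table of 7680 probes held 12 arrays, which make 3 slide pairs of 2 slides with 2 array records each, and n = 3 below means slide pairs. The sources do not say whether the 2 records of a slide are 2 arrays or 2 scans of 1 array. Each record is called an array here. The titles number the pairs. No source says that a number stands for a separate culture or litter, so the p-values speak only of how these slide pairs spread, and that spread may be technical.

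A value is a log ratio of the channels, taken to be in base 2 or base e, and centred here on the median probe of its array. From the 2 slides of a pair the treatment effect of a probe was taken as their half-difference, the slide with the control RNA in channel 1 being subtracted. With channel 1 as the numerator a positive effect means more transcript after 4CP, and with channel 2 it means less. The sources settle neither this nor whether exchanged slides were turned by the authors, so the half-sum of the slides, which would be the effect had they been turned, is given as well. A ratio holds no level. Neither the abundance of a transferase nor the presence of the markers of embryonic tissues could therefore be checked, and the number of slide pairs, not a read depth, limits the precision.

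Cyclophosphamide-type drugs break down to phosphoramide mustard, which crosslinks DNA, and to acrolein, a small aldehyde that reacts with glutathione and with protein thiols. Transferases speed the capture of such molecules, and exporters then carry the conjugates out of the cell. Many transferase genes are known targets of the transcription factor NRF2 (Nfe2l2), which electrophiles release from its inhibitor KEAP1 and which binds antioxidant response elements in promoters. AP-1 factors such as JUN bind a related, shorter element known from the promoter of Gstp genes.

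To show where these elements lie in the member genes, the 250 bases before the transcription start were read for 8 of the 9 genes from RefSeq sequence of build GRCm38.p6 (the table has no entry named Gsta4). The core of the antioxidant response element was searched as TGACNNNGC, and the AP-1 element as TGACTCA, both on either strand. An AP-1 element read as TGACTCA and followed by GC would count under both. The form TGAGTCA followed by GC, which the Gstp1 window holds, counts as an AP-1 element alone, so the core search does not cover it. The first matched 10.2% of 32851 such windows of all genes and 2 of 11 member windows, those of Gstm5 and Mgst1. The second matched 4.46% of all windows and 2 member windows, those of Gstp1 and Gstm5. The 3 windows with a match are printed 5′ to 3′ along the gene, with matches in capitals.
Gstp1, chr19:4037913-4038162, minus strand: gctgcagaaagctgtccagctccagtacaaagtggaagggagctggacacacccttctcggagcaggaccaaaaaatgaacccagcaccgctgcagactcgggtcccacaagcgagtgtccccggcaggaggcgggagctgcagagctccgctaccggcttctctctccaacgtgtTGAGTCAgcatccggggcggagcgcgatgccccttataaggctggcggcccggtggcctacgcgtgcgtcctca
Gstm5, chr3:107895604-107895853, plus strand: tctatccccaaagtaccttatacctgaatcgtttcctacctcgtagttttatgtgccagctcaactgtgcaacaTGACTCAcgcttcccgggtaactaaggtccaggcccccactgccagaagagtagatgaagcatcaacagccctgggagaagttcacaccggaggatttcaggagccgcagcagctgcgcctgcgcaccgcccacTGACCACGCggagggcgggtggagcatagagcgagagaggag
Mgst1, chr6:138140277-138140526, plus strand: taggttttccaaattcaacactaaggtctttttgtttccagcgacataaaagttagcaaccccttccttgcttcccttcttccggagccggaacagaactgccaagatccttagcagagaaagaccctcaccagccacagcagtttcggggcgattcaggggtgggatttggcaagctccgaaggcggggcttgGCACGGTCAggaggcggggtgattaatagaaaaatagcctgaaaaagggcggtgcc
In Gstp1 the match TGAGTCA begins at position -74 from the start. In Gstm5 the match TGACTCA begins at -176 and TGACCACGC at -42, and in Mgst1 GCACGGTCA, the core on the other strand, begins at -56. A match is a run of letters and not a shown binding site.

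After 1 h of 4CP no glutathione transferase changed past the threshold of 0.05. None of the 12 probes passed in limma's test with Benjamini-Hochberg adjustment over the 7680 probes of its table, where 0% of all probes passed in either table. None passed even at an unadjusted p under 0.05, which 2.34% of all first-table and 5.22% of all second-table probes did. Mean effects ran from -0.061 for Gsta4 to 0.046 for Gstp1, and single pairs from -0.096 to 0.151. The median size of a second-table member effect, sign aside, was 0.028, against 0.023 over all probes of that table, and the Gstp1 effect of 0.046 stood against a median of 0.035 in the first table. The 95% intervals of the members lay within -0.130 and 0.169. In base e the widest of these, that of Gstp1, runs from 0.926-fold to 1.18-fold, and in base 2 from 0.948-fold to 1.12-fold.

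**Figure D1:**
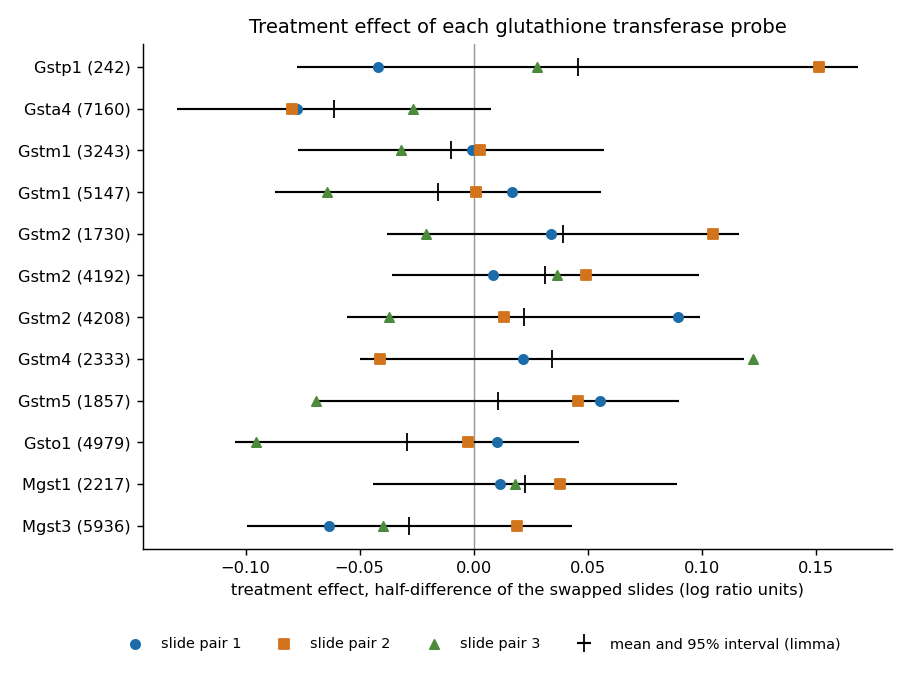
Treatment effect of each member probe (horizontal axis, log ratio units of the unstated base; probe numbers in brackets), with a symbol for each of 3 slide pairs and a line for the mean and its 95% interval from limma. Every interval takes in 0, and only Gsta4, Gstm2 probe 4192 and Mgst1 have all 3 pairs on 1 side of 0.

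Gstp1, the pi-class enzyme that is also known to bind the kinase JNK, had array values of -0.723, -0.168 and 0.207 (lowest, median, highest of 6 arrays) with treated RNA in channel 1. With treated RNA in channel 2 they were -0.839, -0.155 and -0.071. The orientations overlapped over most of their range, and the arrays of pair 3 held the lowest value in each. The effects were -0.042 in pair 1, 0.151 in pair 2 and 0.028 in pair 3, with a mean of 0.046 ± 0.098 (SD, n = 3) and an adjusted p of 0.997 by limma. Pair 2 carried the only effect above 0.1, and without it the mean was -0.0072. The half-sum reading gave -0.241, -0.0034 and -0.459, with a mean of -0.235 ± 0.228 and an adjusted p of 0.726.

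Gsta4, an alpha-class enzyme known for conjugating 4-hydroxynonenal from oxidised lipids, had the largest mean effect in size among the members. Its array values were -0.831, -0.433 and 0.093 (lowest, median, highest) with treated RNA in channel 1, and -0.869, -0.279 and 0.255 with treated RNA in channel 2. The ranges overlapped nearly whole. They pool 3 pairs whose half-sums ran from -0.783 to 0.060, so their overlap says little about the treatment effect. Its effects were -0.077, -0.080 and -0.027 in pairs 1 to 3, with a mean of -0.061 ± 0.030 (SD, n = 3) and a 95% interval from -0.130 to 0.0075. All 3 pairs were negative, as for 14.7% of all second-table probes, and Gsta4 was the 1 member probe of 11 there with this pattern. No such pattern held in the first table, where 11.2% of all probes and 0 of 1 member probe were negative in every pair. The limma p was 0.0745 before and 0.949 after adjustment, although the size exceeded that of 87.6% of second-table probes. The records of a slide did not keep the sign in pairs 2 and 3. There the first records gave 0.034 and 0.0185, and the second records -0.194 and -0.071. In pair 1 both were negative. With first records alone the mean was -0.0097, and with second records alone it was -0.113.

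The mu-class genes Gstm1, Gstm2, Gstm4 and Gstm5 neighbour each other on chromosome 3 and encode similar cytosolic enzymes, so probes may read more than 1 of them. Their 7 probes had mean effects from -0.016 to 0.039 with a median of 0.022, and 5 were positive, the 3 Gstm2 probes among them. Over all second-table probes the median effect was -0.0015, and over all genes there it was -0.0032. The lean did not hold in both records. With first records alone all 4 gene means were negative, from -0.037 to -0.0063. With second records alone all 4 were positive, from 0.0049 to 0.076.

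Gstm1, a major mu-class enzyme of liver, was read by 2 probes that gave nearly the same picture. Probe 3243 had array values of -0.990, -0.341 and 0.090 (lowest, median, highest) with treated RNA in channel 1, and of -0.893, -0.340 and -0.012 in the other orientation. Probe 5147 had -1.016, -0.283 and 0.046, then -0.839, -0.316 and 0.031. In both probes the orientations overlapped and the arrays of pair 3 were the lowest. The mean effects were -0.0099 ± 0.019 and -0.016 ± 0.043 (SD, n = 3), with adjusted p of 0.999 and 0.994 by limma. Averaged over the probes, Gstm1 gave 0.0081 in pair 1, 0.0018 in pair 2 and -0.048 in pair 3.

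Gstm2, another mu-class enzyme, was read by 3 probes that disagreed in their array values while their treatment effects were all small. Probe 1730 had array values of -0.0088, 0.180 and 0.524 (lowest, median, highest) with treated RNA in channel 1, and of -0.050, 0.111 and 0.456 with treated RNA in channel 2. Probe 4192 had -0.648, -0.151 and 0.391, then -0.708, -0.167 and 0.256. Probe 4208 had -0.741, 0.161 and 0.216, then -0.403, 0.0013 and 0.311. On average over the arrays of a pair, probe 1730 was highest in pair 2 and probe 4208 lowest in pair 2, while probe 4192 was highest in pair 2 and lowest in pair 3. The mean effects were 0.039 ± 0.063, 0.031 ± 0.021 and 0.022 ± 0.064 (SD, n = 3), with adjusted p from 0.977 to 0.992 in limma's test. Probe 4192 was positive in all 3 pairs at 0.0083, 0.049 and 0.037. The mean over the 3 probes gave 0.044 in pair 1, 0.056 in pair 2 and -0.0071 in pair 3, with a mean of 0.031 ± 0.033.

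The likeness of probes of 1 gene was described over the 12 centred arrays of the table. The Gstm1 probes had a Pearson correlation of 0.987. The Gstm2 probes 4192 and 4208, which the annotation ties to identical accessions, had one of -0.736, and probe 1730 had 0.371 with 4192 and -0.454 with 4208. Over the 401 second-table probe pairs with identical accessions the correlation ran from -0.922 to 0.974 with a median of 0.435, 80 pairs were below 0, and the Gstm2 pair was the 15th lowest. The arrays share slides and RNA, so these correlations carry no p. Which of the Gstm2 probes reads that transcript was not tested.

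**Figure D2:**
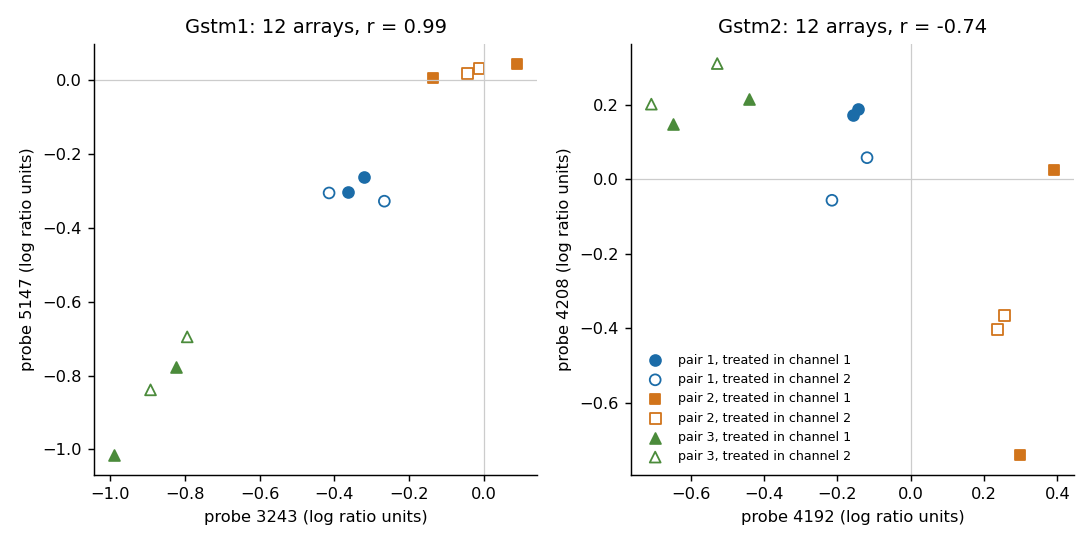
Centred log ratio of 1 probe against another of the same gene on 12 arrays, for Gstm1 (left) and Gstm2 (right), with colour and shape for the slide pair and filled points for treated RNA in channel 1. The Gstm1 probes rise together (r = 0.987), with pair 3 lowest and pair 2 highest, while the Gstm2 probes run against each other (r = -0.736).

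Gstm4 had array values of 0.012, 0.223 and 0.496 (lowest, median, highest) with treated RNA in channel 1, and of -0.305, 0.238 and 0.497 with treated RNA in channel 2. The orientations shared their upper end. Its effects were 0.022, -0.041 and 0.122 in pairs 1 to 3, and the mean was 0.034 ± 0.082 (SD, n = 3), with an adjusted p of 0.984 by limma. Gstm5, a mu-class gene known from brain and testis, had -0.346, -0.269 and -0.145 on the arrays with treated RNA in channel 1, and -0.477, -0.343 and 0.116 on the others. Its first set of values lay inside the second. Its effects of 0.055, 0.046 and -0.069 averaged 0.011 ± 0.069, with an adjusted p of 0.999. The 2 promoter matches of Gstm5 thus stood beside an interval from -0.069 to 0.090.

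Gsto1, the omega-class enzyme that reduces dehydroascorbate and glutathione-protein bonds, had array values of -0.809, -0.321 and -0.027 (lowest, median, highest) with treated RNA in channel 1. The other orientation gave -0.593, -0.307 and -0.120. All 12 arrays were below the median probe, and the orientations overlapped. Its effects were 0.010, -0.0024 and -0.096, with a mean of -0.029 ± 0.058 (SD, n = 3) and an adjusted p of 0.984 by limma.

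The microsomal enzymes sit in membranes, Mgst1 in the endoplasmic reticulum and the outer mitochondrial membrane, and Mgst3 is known for reducing lipid hydroperoxides. Mgst1 had array values of -0.366, 0.054 and 0.227 (lowest, median, highest) with treated RNA in channel 1, and of -0.306, -0.032 and 0.171 with treated RNA in channel 2. The orientations covered nearly the same range. Its effects were 0.011, 0.038 and 0.018, all positive, and the mean was 0.022 ± 0.014 (SD, n = 3), with an interval from -0.044 to 0.089 and an adjusted p of 0.990 by limma. Mgst3 had -0.525, -0.307 and 0.039, then -0.501, -0.179 and -0.041. Its orientations overlapped as well, and its effects of -0.064, 0.019 and -0.040 averaged -0.028 ± 0.042, with an adjusted p of 0.984.

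Probes positive in all 3 pairs made up 9.84% of the second table, and among its 11 member probes 2 were, Gstm2 probe 4192 and Mgst1. In the first table the share was 11.4%, and Gstp1 was not among them. Of the 9 genes, 5 had a positive and 4 a negative mean: Gstp1, Gstm2, Gstm4, Gstm5 and Mgst1 against Gsta4, Gstm1, Gsto1 and Mgst3, although all 9 were negative on the values as deposited, without centring, and Gstm1 turned positive under quantile normalization. With first records alone Gstm2, Gstm4, Gstm5 and Mgst1 turned negative, which left Gstp1 as the 1 positive gene. Without pair 2 Gstp1 and Gstm5 turned negative, without pair 1 Gstm5 did, and without pair 3 Gstm1 and Gsto1 turned positive and Gstm4 negative. Without centring the medians of all probes were -0.129 in the first and -0.054 in the second table. The median over the 8 second-table genes was -0.0011, near the median of all genes there. For none of the 12 probes were the array values of the orientations separate, and 0% of all probes in either table had separate orientations. Such overlap sets the pairing of the slides aside, so it cannot show whether a treatment effect was present.

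**Figure D3:**
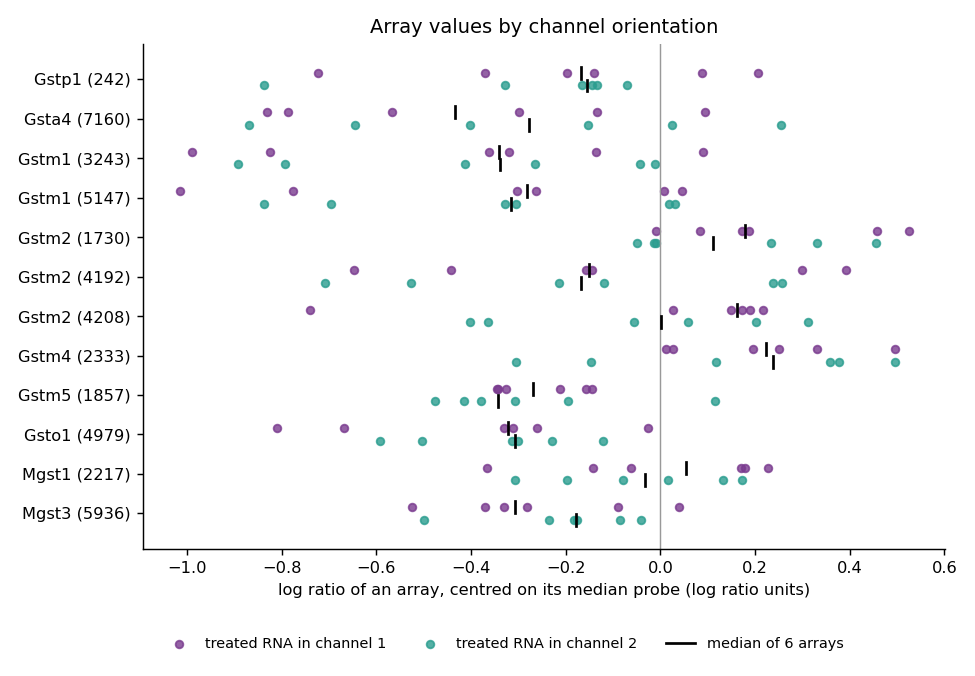
Log ratio of each member probe on single arrays (horizontal axis, log ratio units, 0 being the median probe of the array), in purple with treated RNA in channel 1 and in green with treated RNA in channel 2, with a bar at the median of 6 arrays. The colours overlap for all 12 probes. Most arrays of both colours lie left of 0 for Gstp1, Gsta4, Gstm1, Gstm2 probe 4192, Gstm5, Gsto1 and Mgst3.

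The half-sum reading, which does not turn the exchanged slides, held larger values and larger spreads. Of the 12 member probes 10 were negative under it, 1 of 1 in the first and 9 of 11 in the second table, where 47.8% and 56.4% of all probes were. Its median over member probes was -0.235 in the first and -0.232 in the second table, against 0.016 and -0.030 over all probes. Over the member genes of the second table the median was -0.249. Some other lists had negative half-sum medians over their genes as well. The list of peroxidases and thiol redox enzymes had -0.411 and -0.382 in the first and second table, and the NRF2 regulators had -0.258 and -0.206. The erythroid markers had -0.402 in the second table, but 0.174 for the 1 first-table gene. Signs differed in other lists. The other family members had 0.607 for the 1 first-table gene, Ptges, and -0.021 over 4 genes in the second table. Exporters of conjugates had 0.180 and -0.110, the other detoxifying enzymes 0.066 and -0.171, and yolk sac markers 0.134 and -0.010. Glutathione synthesis and recycling had -0.136 and 0.053. Among the member probes Gstm1 probe 3243 was lowest, at -0.341, -0.026 and -0.875 in pairs 1 to 3. Its mean was -0.414 ± 0.430 (SD, n = 3), with an adjusted p of 0.319 by limma. Gsto1 at -0.297, -0.177 and -0.643 had a mean of -0.372 ± 0.242 and a 95% interval from -0.721 to -0.023. Its p was 0.0395 before and 0.280 after adjustment, and it was the only member with an unadjusted p under 0.05, 1 of 11 in a table where 16.3% of all probes were called so. The share was 18.5% in the first table, and Gstp1 was not in it. After adjustment 2.85% of first-table and 0% of second-table probes passed under the half-sum reading, and 0 of 12 member probes.

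The half-sum differed more between pairs than the treatment effect did, and members shared an order. It was highest in pair 2 and lowest in pair 3 for 8 of 12 member probes: Gstp1, Gsta4, both Gstm1 probes, Gstm2 probe 4192, Gstm4, Gsto1 and Mgst3. That is 1 of 1 in the first table, where 41.9% of all probes had this order, and 7 of 11 in the second, where 40.2% did. The order was chosen after its values were seen, so it is a description. Gsta4, for example, ran from 0.060 in pair 2 to -0.783 in pair 3, and Gstm2 probe 4208 went the other way, with -0.371 in pair 2 and 0.220 in pair 3. What moves with the pair number was not tested.

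**Figure D4:**
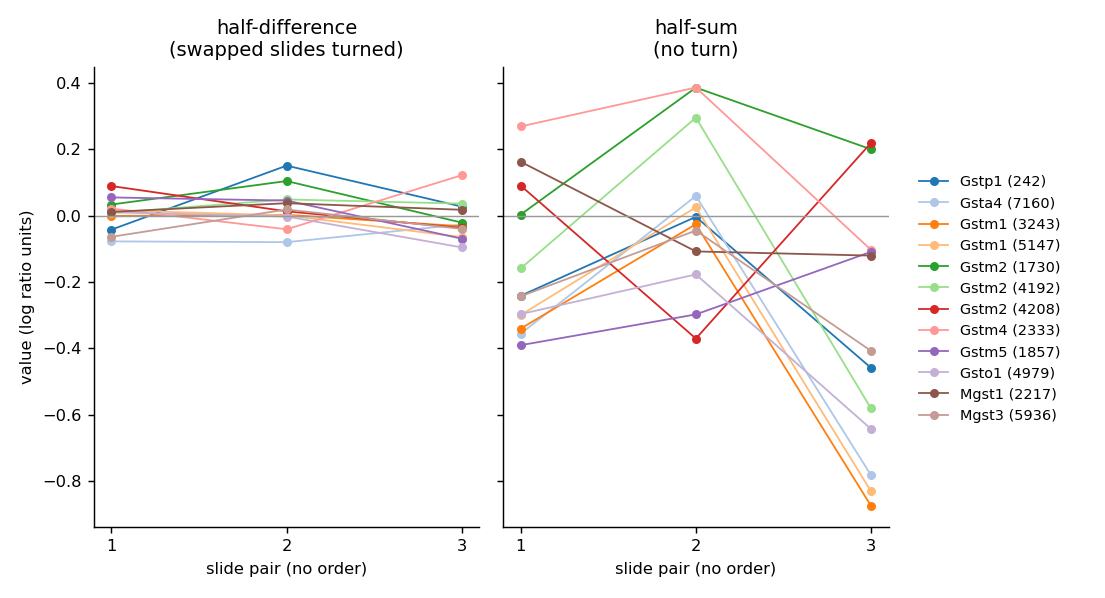
Both readings of each member probe in 3 slide pairs (horizontal axis, with no order; vertical axis, log ratio units): the half-difference on the left and the half-sum on the right, each line being 1 probe. The half-differences stay between -0.096 and 0.151, while the half-sums spread from -0.875 to 0.387, with most lines highest in pair 2 and lowest in pair 3.

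No probe of the other measured genes of the family passed the threshold either. Gstm7, another mu-class gene of the chromosome 3 cluster, had positive effects of 0.102, 0.079 and 0.013, with a mean of 0.065 ± 0.046 (SD, n = 3) and an adjusted p of 0.949 by limma. Gstm6 from the same cluster had 0.019, 0.081 and -0.038. Gstcd, which encodes a protein with a transferase-like domain, was negative in each pair at -0.021, -0.080 and -0.111, and its mean was -0.071 ± 0.046 with an adjusted p of 0.949. Of the membrane proteins of lipid mediator synthesis that share the microsomal fold, Ptges had -0.153, 0.084 and 0.011 in the first table, and Alox5ap had 0.012, -0.185 and 0.270 in the second.

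The genes that supply, use and clear glutathione were taken from 7 lists, that of the other family members included. Of these, 29 genes with 34 probes were measured in the first table, 0 probes passed limma's adjusted threshold, 2 had an unadjusted p under 0.05, and 20 genes had a positive mean, with a median of 0.022. In the second table it was 24 genes with 31 probes, of which 0 passed, 0 had an unadjusted p under 0.05, and 14 genes were positive, with a median of 0.0068. The medians over all genes were 0.0012 and -0.0032.

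The list of peroxidases and thiol redox enzymes held Gpx1, Glrx, Glrx3, Glrx5, Glo1, Adh5, Prdx1, Prdx2, Txn2 and Txnrd1 in the first table, and 9 of these 10 genes had positive means, with a list median of 0.057. The half-sum reading of the same list had the other sign, with a median of -0.411 in the first and -0.382 in the second table. Glrx3, a glutaredoxin that carries iron-sulfur clusters, had 0.237, 0.068 and 0.032 in pairs 1 to 3. Prdx1, a peroxiredoxin that removes hydrogen peroxide, had 0.169, 0.098 and 0.028, and Glo1, the glyoxalase that uses glutathione to clear methylglyoxal, had 0.161, 0.0062 and 0.070. All 3 were highest in pair 1, and pairs 1 to 3 had list medians of 0.112, 0.072 and -0.0003. Of the 10 second-table genes of the list, 7 were positive with a median of 0.020, and Prdx4 was negative throughout at -0.0011, -0.035 and -0.020.

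Glutathione synthesis and recycling had 3 positive genes of 6 in the first table, with a median of -0.0023. Its 3 second-table genes were negative in each pair: Cth, which makes cysteine, with a mean of -0.051 ± 0.060 (SD, n = 3), Idh1, with -0.033 ± 0.0064, and Me1, with -0.018 ± 0.0087, the last 2 known as sources of NADPH. Their lowest adjusted p in limma was 0.949. Idh1 and Me1 had first-table probes too, at -0.012 ± 0.057 and 0.0078 ± 0.068. Of the exporters of conjugates, Abcc3 was negative in each pair with a mean of -0.048 ± 0.036, and Abcc1 had 0.0070 in the first and -0.029 in the second table. The other detoxifying enzymes of electrophiles had medians of 0.022 over 3 genes and 0.0094 over 2.

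Among the NRF2 regulators of the first table Nfe2l2 and Nfe2l1 had larger means than any other gene of the 7 lists, while Mafg, a DNA-binding partner of NRF2, had 0.022 ± 0.038 (SD, n = 3). The half-sum medians of this list were negative, as given above. Nfe2l2, which encodes NRF2, had 0.212, 0.019 and 0.327, with a mean of 0.186 ± 0.155 (SD, n = 3), an unadjusted p of 0.0179 and an adjusted p of 0.997 by limma. Nfe2l1, its close relative, had 0.176, 0.072 and 0.121, with 0.0336 and 0.997. These were the 2 probes with an unadjusted p under 0.05. In the second table the Nfe2l2 probe gave 0.020, 0.066 and 0.044, also positive, and the Nfe2l1 gene mean was -0.018 ± 0.055. Bach1, a repressor at antioxidant response elements, had 0.0052 ± 0.066 and 0.0049 ± 0.0067. Of the kinases that transferase proteins are known to bind, Mapk8 was negative in each pair at -0.075, -0.110 and -0.046, and Mapk9 at -0.252, -0.017 and -0.0093, each with an adjusted p of 0.997. Jun, the AP-1 factor and the other measured gene of that list, had 0.1598, -0.0081 and 0.028, with a mean of 0.060 ± 0.088 (SD, n = 3).

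**Figure D5:**
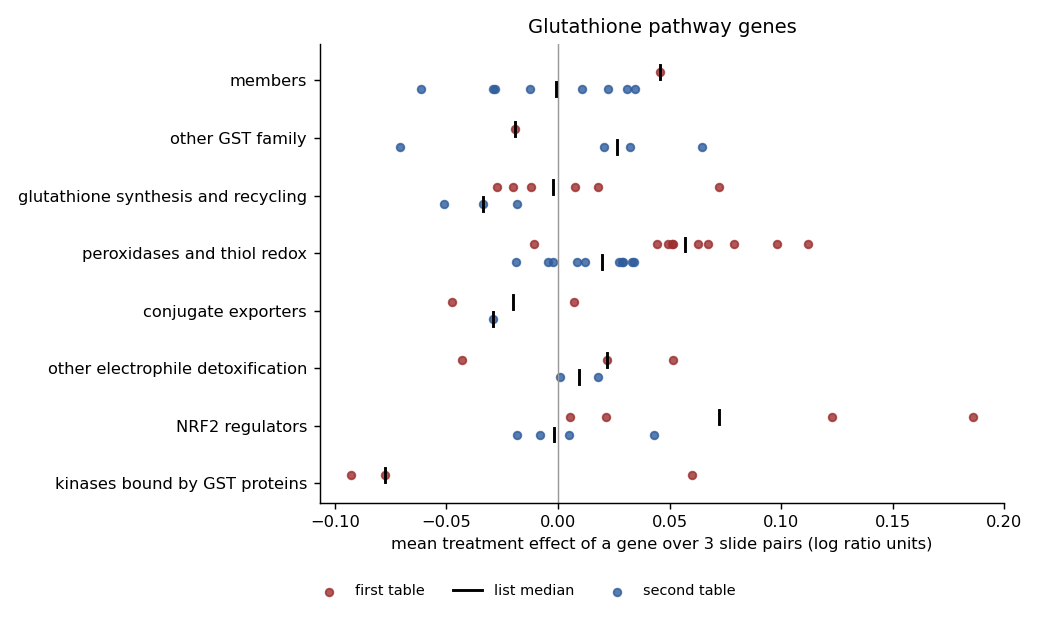
Mean treatment effect of each measured gene (horizontal axis, log ratio units, mean of 3 slide pairs) in the member list and 7 related lists, in red for the first and blue for the second table, with a bar at each list median. Member genes lie between -0.061 and 0.046, and the largest value is that of Nfe2l2 in the first table, 0.186.

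Gstm2, the member with most probes, was set beside the 4074 other named genes of its table over 6 effects, 3 pairs with 2 array records each. The 3 most alike were Zcrb1, which encodes an RNA-binding protein (Pearson r = 0.983), Pard3, a cell polarity scaffold (0.977), and Sephs1, of the selenophosphate synthetase family (0.974), and 61 genes had r above 0.9. Their mean effects were -0.051 ± 0.033, -0.031 ± 0.031 and -0.0039 ± 0.042 (SD, n = 3). Over 6 points that share slides this is a description of these arrays.

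Markers of yolk sac, blood, trophoblast, neural tube, heart and vessels were measured for 13 genes in the first and 7 in the second table, with 0 probes past the adjusted threshold by limma and 0 and 1 with an unadjusted p under 0.05. No heart marker was measured. Their mean effects ran from -0.059 to 0.174 and from -0.088 to 0.017, and 5 of 13 and 1 of 7 were positive. All 5 yolk sac markers of the first table had negative means, with a median of -0.038. So had all 4 erythroid markers of the second, with a median of -0.053 and the 1 probe with an unadjusted p under 0.05. Of these, 1 yolk sac and 2 erythroid genes were negative in every pair. Among all probes 11.2% in the first and 14.7% in the second table were. In pair 2 the list medians were 0.031 and -0.0023. Of the 2 yolk sac markers of the second table, 1 was positive. The part of the markers in the member values was not tested.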

How the data were processed

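The deposited values are log ratios of 2 channels, judged from the values, since the labels name no unit; the sources used here do not give the authors' background correction, normalization, software or numerator channel. Base 10 is unlikely, since 7.71 exceeds the log10 of a 16-bit scanner range, 4.82, but the unknown background correction keeps it from being excluded. The data table therefore lists them as other, not as log2.

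Here each array was centred on its median, the 2 records of a slide were averaged, and slides were combined per pair. Effects were tested within each table with limma 3.58.1 in R 4.3.3 (lmFit, eBayes), with Benjamini-Hochberg adjustment over 7680 probes, a threshold of 0.05, no filter and 95% intervals. The script was tested on simulated data. Tables were not combined. The design had foreseen log2 ratios; the test was kept, as its p-values do not depend on the base.

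Titles pair the slides, and slides of a pair deviated together from the means of their orientation (r from 0.473 to 0.928 in the first and from 0.688 to 0.930 in the second table), so the pair was the block. Probes were named by the platform annotation where it gave 1 symbol (4749 and 4935 probes, of which 4712 and 4884 matched the reference gene table by identifier; 227 and 275 probes had several symbols), and probes of a gene were averaged. The text names every member probe and, from each related list, up to 3 genes per table with the largest mean among those whose 3 pairs share a sign, beside genes given for contrast (Gstm6, Ptges, Alox5ap, Abcc1, Mafg, Jun and second values of a named gene), which were chosen after their values were seen. Members and lists were chosen with earlier results of these data known. Alternatives were other centrings and normalizations, no block, no turn, 1 orientation, 1 record, a dye trend, and leaving out each pair.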

Additional observations from a re-analysis of the deposited data

Results flagged for a closer look

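Member values were searched for single arrays that stand apart in a group of 6 arrays of 1 orientation, with Dixon's 95% critical value. Of 24 groups 2 were marked. A chance rate of 1 in 20 groups holds for independent arrays. Here each group is 3 slides with 2 records each, so that rate need not hold. For Gstm2 probe 4208 with treated RNA in channel 1, the first record of pair 2 was -0.741. The other 5 arrays lay between 0.026 and 0.216, a gap of 0.802 of the range. Pair 2 was lowest with treated RNA in channel 2 as well, at -0.403 and -0.365 in its records. The treatment effect of this probe in pair 2 was -0.169 from the first records and 0.195 from the second. For Gstp1 with treated RNA in channel 2, the second record of pair 3 was -0.839, and the others lay between -0.328 and -0.071, a gap of 0.666 of the range. With treated RNA in channel 1 the second record of pair 3 was the lowest too, at -0.723.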

How the results depend on the processing

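No member probe passed the adjusted limma threshold under any alternative run. Over all first-table probes, 0 passed in the fit as reported, 33 without centring, 219 without turning the exchanged slides, 174 and 668 with treated RNA in channel 1 or channel 2 alone, and 24 to 30 without 1 pair. In the second table it was 1 without centring and 0 to 58 without 1 pair. The fit with no replicate block passed 0 probes in both tables. The first-table member value, Gstp1, moved from 0.046 to -0.078 without centring, -0.235 without the turn, and -0.189 and 0.280 with 1 orientation alone; without pair 1, 2 or 3 it ran from -0.0072 to 0.089. The second-table median over member genes moved from -0.0011 to -0.054, -0.249, -0.258 and 0.240 under the same settings. It became 0.028 with second records alone, and ran from -0.014 to 0.0044 without 1 pair. Without centring the medians of all probes were -0.129 and -0.054. Of 126 gene effects over 14 settings, 90 moved by less than 1 SD between pairs. Many of these could not have moved further. Leaving out 1 of 3 pairs cannot shift a mean by 1 SD, and the fit with no block keeps the same effects. Taking the median over the probes of a gene could alter Gstm2 alone. Of 9 gene effects, 6 moved without centring, 8 without the turn, and 8 with each orientation alone. Signal over background is unknown for every probe.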

Other observations

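In the second table the effects from the 2 array records differed, in the median, by more than the size of a mean treatment effect. Over the 33 pair effects of the 11 second-table member probes, the records gave opposite signs in 13, against 40.6% of all probe effects in that table. The median gap between records in a pair effect was 0.054 for members and 0.052 for all probes. The median size of a mean effect over the 3 pairs was 0.028 and 0.023. In pair 2 the first records gave a lower effect than the second for 10 of 11 member probes, where 47.0% of all probes did, a pattern picked after its values were seen. In the first table Gstp1 did not have it, and 52.1% of all probes did. The largest gap belonged to Gstm2 probe 4208, at 0.364.

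Alox5ap, the 5-lipoxygenase activating protein, had a pair 3 effect of 0.598 from the first records and -0.059 from the second, and a pair 2 effect of 0.027 and -0.398. Ptges, prostaglandin E synthase, had half-sums of 0.502, 0.541 and 0.779 in its 3 pairs, positive in each.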
